A study of Mus musculus with 12 samples.

Results

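Chemokines are small secreted proteins that draw other leukocytes along a gradient, and T cells make a defined set of them. The transcripts described here are the 8 chemokine genes Ccl1, Ccl3, Ccl4, Ccl5, Ccl20, Xcl1, Cxcl9 and Cxcl10. They were taken by symbol from the 55401 genes of the deposited count table, and each symbol matched 1 Ensembl identifier. All 8 passed the filter on low counts. The libraries came from wild-type mouse lymph node T cells that had been differentiated from the naive state into Th17 cells, the helper T cells that secrete IL-17. The cells were then left without inhibitor (None), or were given Kira8, Stattic, or Kira8 together with Stattic (Kira8+Stattic), for 4 h. There were 3 libraries per group, 12 in all. Kira8 binds the kinase domain of IRE1alpha, an endoplasmic reticulum stress sensor, and lowers its RNase activity. Stattic is a small molecule that blocks STAT3, a transcription factor that Th17 differentiation needs. The labels give no inhibitor dose, and they do not say whether the None cells received solvent. They do not say whether replicates were separate cultures or animals either, so p-values measure the spread between these libraries, which may be technical.

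The libraries Kira8 replicate 2 and Stattic replicate 2 differed from the rest in depth and make-up. They held 19.8 and 9.28 M counts (megacounts) against 51.7 to 85.9 M, and mitochondrial genes took 61.55% and 10.66% of those counts against 3.379% to 5.221%. The values below therefore come from the 10 other libraries unless 12 are named, which leaves 2 libraries each for Kira8 and Stattic. All 8 pan T cell markers had counts in each of the 10 libraries. Their summed level was 2710 to 2870 CPM (counts per megacount of library) in None and 2120 and 2300 CPM in Kira8. It was 2540 and 3060 CPM in Stattic and 2480 to 2650 CPM in Kira8+Stattic. The Kira8 and Kira8+Stattic sums thus lay below those of None. All 8 had a negative log2 change against None after Kira8 (median -0.542), and 4 did after Stattic and after the combination. The 8 Th17 markers were also detected in each group, though Il22 stood at only 0 to 0.0517 CPM in Kira8+Stattic. They summed to 708 to 2790 CPM in None and 689 to 860 CPM after treatment. Il17a and Il17f had the highest means of the 8 in None, at 718 ± 600 and 548 ± 390 CPM (SD). Rora went the other way, from 37.7 to 122 CPM in None to 202 to 368 CPM in the treated groups.

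The 8 chemokines fall into groups by receptor and by the cells they attract. CCL3, CCL4 and CCL5 are inflammatory CC chemokines that act on monocytes, NK cells and effector T cells. XCL1 (lymphotactin) attracts cross-presenting dendritic cells through XCR1, and CCL1 acts on CCR8. CCL20 is the only chemokine ligand of CCR6, the receptor that marks Th17 cells themselves, and Th17 cells are a known source of it. CXCL9 and CXCL10 bind CXCR3 on type 1 T cells and are best known as products of cells exposed to interferon-gamma. In T cells, transcription of Ccl3, Ccl4 and Xcl1 follows antigen receptor signals, whereas Ccl5 is known as a late, long-lived transcript of memory and effector cells.

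No link between upstream letters and the changes under the inhibitors was tested. The upstream sequences of 4 members are printed, chosen after the changes of these genes had been seen. Each is the 250 bases before the RefSeq transcription start in GRCm38.p6, read 5′ to 3′ on the gene's strand. Capitals mark matches on either strand to 5 motifs. These were the NF-kB motif (searched by name), the interferon-stimulated response element (ISRE, GAAANNGAAA), the STAT-binding gamma-activated sequence (GAS, TTCNNNGAA), the AP-1 motif (TGANTCA) and the core of the NFAT motif (GGAAAA). The windows are chr5:92348890-92349139 (minus strand) for Cxcl10, chr5:92328080-92328329 (minus) for Cxcl9, chr1:83116516-83116765 (plus) for Ccl20 and chr11:83649379-83649628 (minus) for Ccl3.
Cxcl10 promoter: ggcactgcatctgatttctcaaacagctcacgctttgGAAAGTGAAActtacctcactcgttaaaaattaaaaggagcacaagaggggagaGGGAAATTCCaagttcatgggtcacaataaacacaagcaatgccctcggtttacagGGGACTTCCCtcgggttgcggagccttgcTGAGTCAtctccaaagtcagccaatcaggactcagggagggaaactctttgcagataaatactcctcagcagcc
Cxcl9 promoter: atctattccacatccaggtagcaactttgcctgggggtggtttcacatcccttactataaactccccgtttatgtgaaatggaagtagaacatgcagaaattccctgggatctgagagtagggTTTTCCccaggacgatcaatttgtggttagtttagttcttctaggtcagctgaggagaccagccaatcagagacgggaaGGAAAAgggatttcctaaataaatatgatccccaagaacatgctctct
Ccl20 promoter: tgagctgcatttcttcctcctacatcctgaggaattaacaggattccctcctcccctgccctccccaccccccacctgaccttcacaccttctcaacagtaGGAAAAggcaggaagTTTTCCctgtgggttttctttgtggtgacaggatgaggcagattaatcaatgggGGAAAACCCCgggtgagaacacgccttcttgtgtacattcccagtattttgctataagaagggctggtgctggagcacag
Ccl3 promoter: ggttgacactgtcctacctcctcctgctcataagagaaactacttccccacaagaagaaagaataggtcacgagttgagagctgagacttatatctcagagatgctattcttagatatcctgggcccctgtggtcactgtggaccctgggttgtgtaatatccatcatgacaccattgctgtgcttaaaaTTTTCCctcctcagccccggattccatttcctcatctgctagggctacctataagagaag
The Cxcl10 window held an ISRE at -213 to -204, NF-kB matches at -159 to -150 and -103 to -94, and an AP-1 match at -74 to -68, counted from the start. Of 32851 windows of mouse genes in the same table, 2.98% held this ISRE, 3.9% an NF-kB match and 6.75% an AP-1 match. The Cxcl9 window, from the neighbouring gene, held, of these 5, NFAT matches only, at -127 to -122 and -48 to -43. Ccl20 held an NF-kB match at -80 to -71, overlapped by an NFAT match, and further NFAT matches at -149 to -144 and -134 to -129. Ccl3 held a single NFAT match at -60 to -55, letters that 20.4% of all windows contain. No GAS match, found in 7.02% of all windows, lay in any of the 6 member windows of the table, which also include Ccl1 and Xcl1. The ROR motif (AGGTCA), found in 14.0% of all windows, lay in the Ccl3, Ccl20 and Cxcl9 windows, and the heat shock element (GAANNTTC), found in 6.69%, lay in none of the 6. Such matches describe letters in a short window and say nothing of binding.

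The other end of the transcripts was compared as well, because AU-rich elements in 3′ untranslated regions mark many short-lived cytokine mRNAs. The 7-base core TATTTAT, in capitals below with up to 10 bases on each side, was found in 4 of the 8 members' 3′ untranslated regions.
Ccl3 3′ site: tatttgtgacTATTTATtctgaaagac
Ccl4 3′ site: ttatttctatTATTTATgttttagtta
Ccl20 3′ site: tattttatgtTATTTATagatctgaat
Xcl1 3′ site: aagtaataaaTATTTATtattgatga
The core was not found in Ccl1, Ccl5, Cxcl9 or Cxcl10. Among 15270 mouse 3′ untranslated regions within the members' length range of 141 to 2452 bases, 21.1% contained it. The shorter ATTTA occurred 3 times in Cxcl9 and 2 times in Cxcl10, and not in Ccl1 or Ccl5. It occurred 5 times in Ccl3, 2 in Ccl4, 9 in Ccl20 and 1 in Xcl1. Its share over all genes was not counted. The 4 genes with the core were also the 4 with the highest level per kilobase in None, which is a description of 8 genes.

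In the None cells, levels spanned more than 2 orders of magnitude. Per kilobase of exon, Ccl3 stood at 258 ± 93.7 CPM (SD, n = 3), Ccl4 at 221 ± 71.7, Ccl20 at 190 ± 29.4 and Xcl1 at 124 ± 40.1. The neighbours in this order lay within each other's spread. Ccl5 at 10.9 ± 0.934 and Cxcl10 at 7.53 ± 1.49 CPM per kilobase formed a lower tier. Ccl1 at 0.993 ± 0.625 and Cxcl9 at 0.945 ± 0.395 CPM per kilobase were the scarcest and did not differ beyond their spread. After Kira8 the order changed, with Ccl20 at 105 CPM per kilobase above Ccl3 at 20.6, Ccl4 at 19.2, Xcl1 at 14.9 and Cxcl10 at 14.4. After Stattic the order was Ccl3 at 45.2, Xcl1 at 21.2, Ccl4 at 18.9 and Ccl20 at 15.6 CPM per kilobase.

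**Figure D1:**
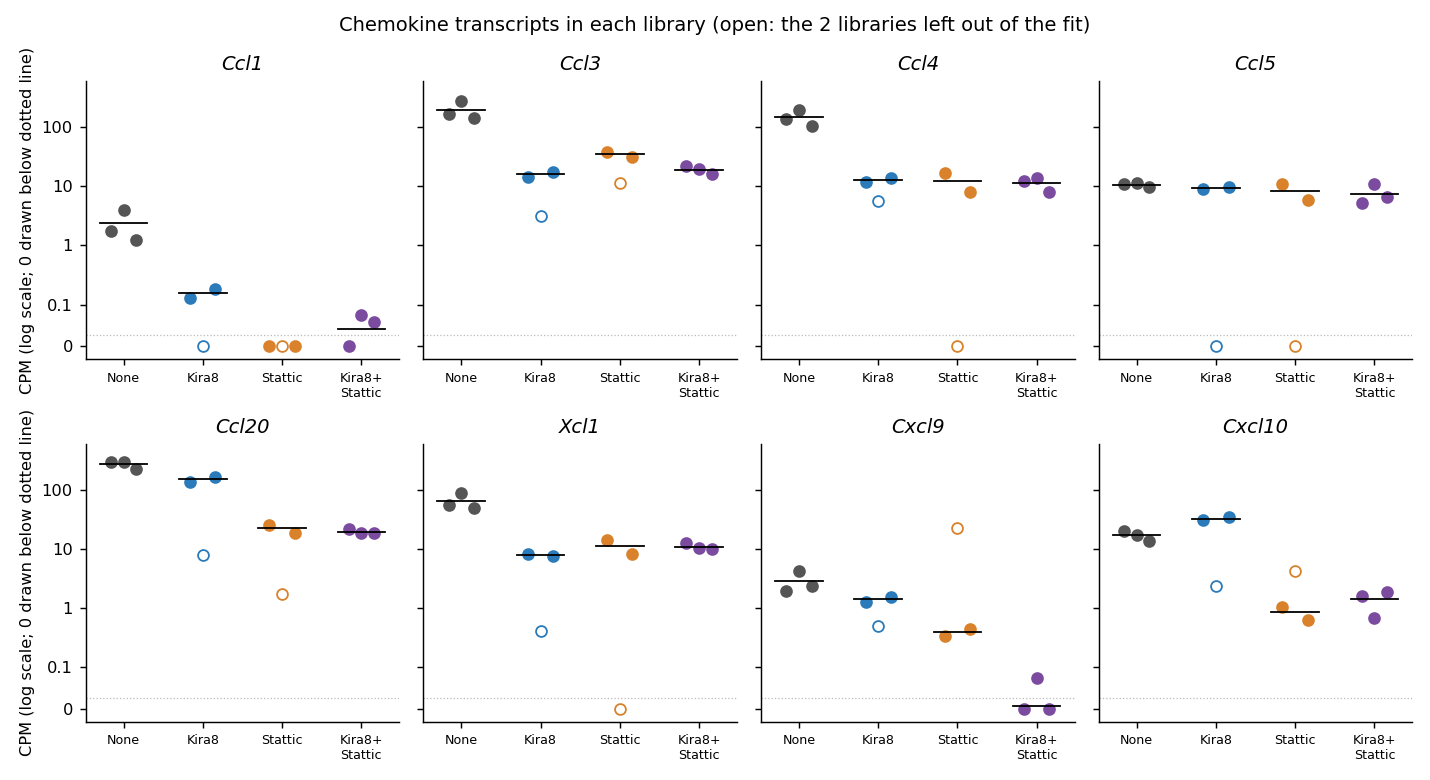
Each panel plots 1 chemokine gene by library, on a log scale of CPM, with group means as bars; values of 0 sit below the dotted line, and open circles are the 2 libraries left out of the fit. Ccl3, Ccl4 and Xcl1 dropped in all treated libraries, Ccl20 and Cxcl10 stayed high in the Kira8 libraries 1 and 3 only, and Ccl5 stayed within 5.26 and 11.3 CPM in the 10 libraries.

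Summed over the 8 genes, chemokine reads fell from 712 ± 175 CPM in None (SD, n = 3) to 229 ± 23.6 after Kira8 (n = 2), 89.9 ± 23.5 after Stattic (n = 2) and 69.8 ± 7.78 after both (n = 3). These sums were not tested. Ccl20 supplied 32.8% to 42.7% of the summed CPM in None and 64.6% to 65.8% in Kira8. Cxcl10 supplied 1.91% to 2.92% in None and 13.9% to 14.5% in Kira8. Ccl3 supplied 6.72% to 7.06% in Kira8 and 35.3% to 43.2% in Stattic. The Kira8 cells held a chemokine pool made mostly of Ccl20, and the Stattic cells one in which Ccl3 was the most abundant.

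**Figure D2:**
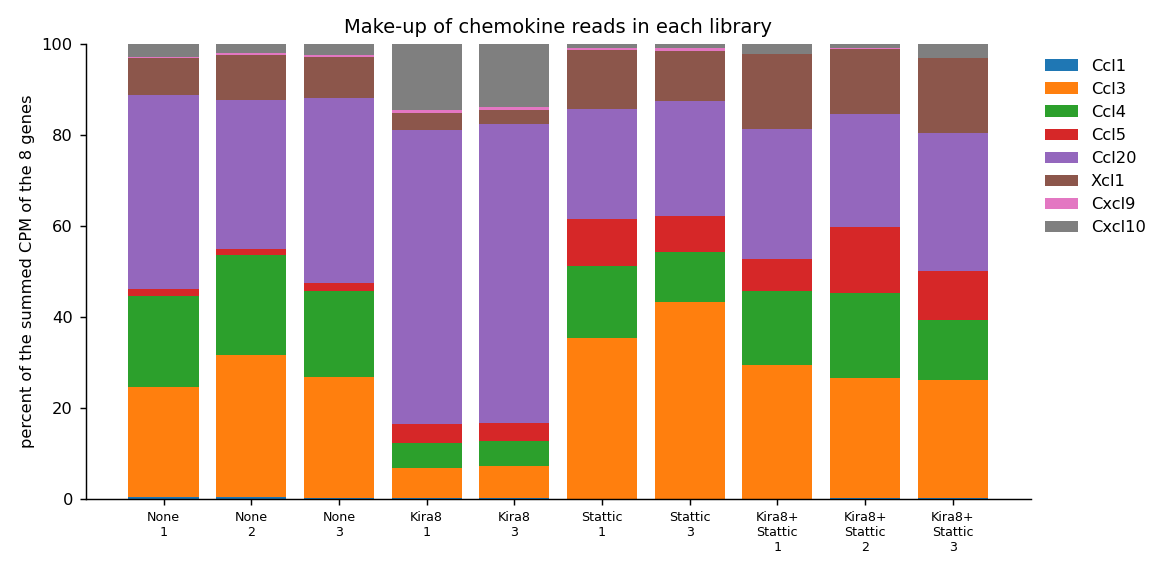
Each bar is a library and shows the percent of the summed CPM of the 8 genes that each gene contributed. The Kira8 libraries stand out by Ccl20 at 64.6% to 65.8%, and the Stattic libraries by Ccl3 at 35.3% to 43.2%.

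Against None, Kira8 lowered 5 of the 8 chemokines and raised none that passed the test, where 9.59% of all genes tested were called lower and 9.7% higher. The test was edgeR's quasi-likelihood F test, and calls were made where the p adjusted by Benjamini-Hochberg over 21239 genes was under 0.05. Stattic lowered 7 of 8 (18.9% of all genes were called lower), and the combination lowered 7 of 8 (20% of all genes). Median log2 changes of the 8 were -2.03, -3.21 and -3.64 in these comparisons, with all-gene medians of 0, 0.079 and 0.089. The 3 comparisons use the same None libraries, so their results are not independent of each other. In bulk RNA, fewer cells of a type and less RNA per cell cannot be told apart, and that holds for all values here.

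With all 12 libraries in the fit, the spread was far larger, and the members called fell to 0 after Kira8 (0% of 20993 genes were called in that fit), 1 after Stattic (0.205% lower) and 1 after the combination (0.138% lower). In that Kira8 comparison 4 members and 2689 genes had an unadjusted p under 0.05. When limma voom weighted the same 12 libraries by quality, it called 6, 7 and 7 members among 4672, 7778 and 9959 genes of 20993. Ccl3 was the member called in the 12-library edgeR fit, at a log2 change of -2.85 ± 0.449 (SE) after Stattic (adjusted p = 0.0353) and -3.39 ± 0.46 after the combination (adjusted p = 0.0309). After Kira8 it stood at -3.70 ± 0.467 (adjusted p = 0.0676). The directions of the other members in the comparisons against None were those of the 10-library fit, except for Cxcl9 after Stattic, given with that gene below.

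**Figure D3:**
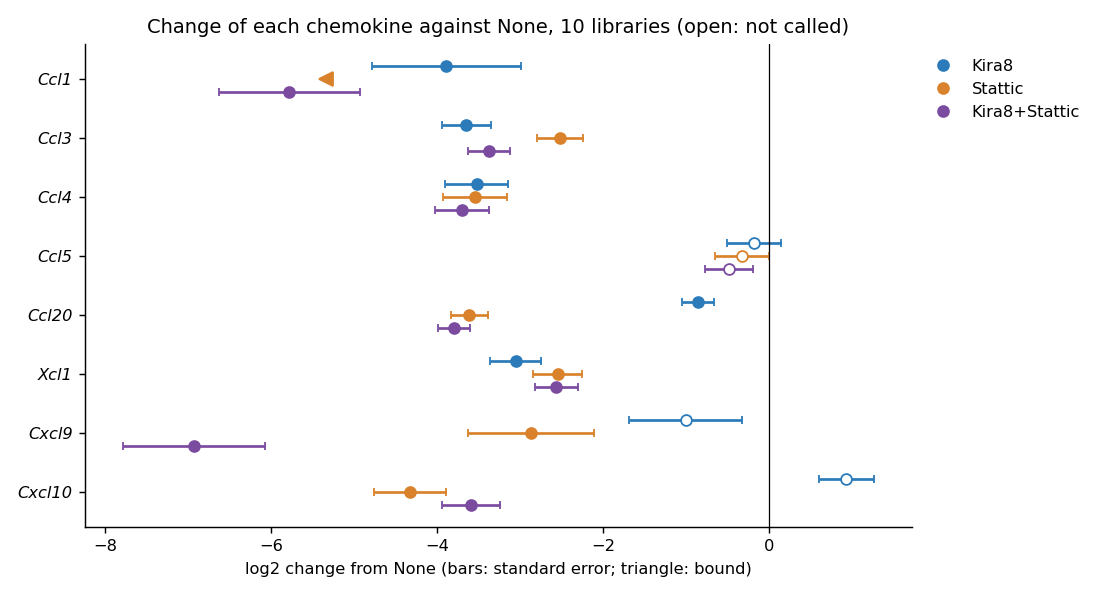
Points are log2 changes of each chemokine from None in the 10 libraries, with bars of 1 standard error; filled points passed the test, open points did not, and the triangle is a bound for Ccl1, which had no counts in Stattic. Ccl3, Ccl4 and Xcl1 lie between -2.52 and -3.70 in all 3 treatments, whereas Ccl20 lies at -0.86 after Kira8 and near -3.6 to -3.8 with Stattic present.

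Ccl3 and Ccl4, both abundant in None, were lowered in all 3 treatments. The Ccl3 gene (ENSMUSG00000000982, chr11:83647844-83649355, minus strand, mm10) and the Ccl4 gene (ENSMUSG00000018930, chr11:83662584-83664683, plus strand) lie side by side. Ccl3 stood at 169, 280 and 145 CPM in the None libraries, 14.3 and 17.3 in Kira8, 37.6 and 31.7 in Stattic, and 22, 19.4 and 15.9 CPM in Kira8+Stattic. All treated libraries lay below all None libraries, and the Stattic pair lay above the other treated libraries. Its level was 12.5-fold lower after Kira8 (log2 -3.65 ± 0.298, adjusted p = 3.59e-05), 5.72-fold lower after Stattic (-2.52 ± 0.28, 3.73e-05) and 10.4-fold lower after the combination (-3.37 ± 0.248, 1.66e-06). In the outlying Kira8 and Stattic libraries it was at 3.08 and 11.3 CPM.

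Ccl4 stood at 138, 197 and 103 CPM in None, 11.7 and 13.7 in Kira8, 16.9 and 8.06 in Stattic, and 12.3, 13.6 and 7.9 CPM in Kira8+Stattic. The treated groups overlapped each other and none reached the None libraries. The 3 changes were 11.5-fold (-3.52 ± 0.385, adjusted p = 0.000159), 11.7-fold (-3.55 ± 0.386, 3.2e-05) and 13-fold (-3.70 ± 0.328, 5.13e-06), all lower. The ratio of Ccl3 to Ccl4 per kilobase was 1.06 to 1.22 in None, 1.05 and 1.09 in Kira8, 1.92 and 3.39 in Stattic, and 1.23 to 1.73 in the combination. The ratio was higher in the Stattic libraries than in any other library, and this difference was not tested.

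Xcl1 (ENSMUSG00000026573, chr1:164931644-164935527, minus strand), which signals to XCR1 on dendritic cells, was lowered in the same comparisons. It stood at 55.6, 88.6 and 49.8 CPM in None, 8.06 and 7.53 in Kira8, 14 and 8.15 in Stattic, and 12.4, 10.5 and 10 CPM in Kira8+Stattic. None of the treated libraries came near the None range, and within the treated libraries the groups lay close together. The reductions were 8.3-fold after Kira8 (-3.05 ± 0.307, adjusted p = 0.000101), 5.85-fold after Stattic (-2.55 ± 0.298, 5.32e-05) and 5.9-fold after both (-2.56 ± 0.254, 1.17e-05). An opposite-strand gene, Gm20743 (0 to 7.22 CPM), overlaps Xcl1 exons, and whether counting used strand is not given in the sources used here. The calls of Ccl3, Ccl4 and Xcl1 against None held when any of the 10 libraries was left out.

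Ccl1 (ENSMUSG00000020702, chr11:82176657-82305690, minus strand), the CCR8 ligand, was scarce and was nearly lost. Its CPM was 1.78, 4.03 and 1.24 in None, 0.13 and 0.184 in Kira8, 0 and 0 in Stattic, and 0, 0.0659 and 0.0517 in Kira8+Stattic, from 82 to 262 counts per None library and at most 11 in a treated library. The None libraries stood alone above 1 CPM. After Kira8 it was 14.8-fold lower (-3.89 ± 0.895, adjusted p = 0.0111). That call was lost without None replicate 2 (adjusted p = 0.0595), Kira8 replicate 1 (0.0975) or Kira8 replicate 3 (0.0792). After Stattic it was at least 40.4-fold lower than None, taking 3 counts per library as the floor (adjusted p = 0.000362), and after the combination the fitted fold was 55 (-5.78 ± 0.855, 0.000295). Folds fitted to so few counts depend on the prior count.

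Ccl20 (ENSMUSG00000026166, chr1:83116766-83119167, plus strand), the CCR6 ligand, separated the inhibitors. It stood at 296, 294 and 222 CPM in None and at 137 and 162 CPM in Kira8. In Stattic it stood at 25.7 and 18.6 CPM, and in Kira8+Stattic at 21.6, 18.3 and 18.6 CPM. The None, Kira8 and Stattic-containing libraries formed 3 tiers with no overlap. Kira8 lowered it 1.81-fold (-0.86 ± 0.193, adjusted p = 0.00871), a call that was lost without Kira8 replicate 1 (-0.74, adjusted p = 0.114) and when the test was made against a 1.5-fold change (adjusted p = 0.2). Stattic lowered it 12.2-fold (-3.61 ± 0.222, 1.21e-06) and the combination 13.9-fold (-3.80 ± 0.189, 2.11e-07). In the outlying Kira8 library it was at 7.92 CPM, far below the other Kira8 libraries, and in the outlying Stattic library at 1.72 CPM.

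Cxcl10 (ENSMUSG00000034855, chr5:92346638-92348889, minus strand) was the only member whose Kira8 replicates 1 and 3 lay above None. It stood at 20.2, 17.1 and 13.6 CPM in None, 30.7 and 34.1 in Kira8, 1.06 and 0.636 in Stattic, and 1.63, 0.675 and 1.9 CPM in Kira8+Stattic. The Kira8 range did not overlap the None range, and the Stattic-containing libraries lay far below both. Kira8 replicate 2, left out of the fit, held Cxcl10 at 2.32 CPM, below the None libraries. The Kira8 difference was a log2 change of 0.93 ± 0.335 (95% interval 0.278 to 1.59), which did not pass the test (adjusted p = 0.0721). It did pass in DESeq2 (adjusted p = 0.0362), in limma voom (0.00682), in a fit of None and Kira8 alone (0.0186) and with a filter of 1 CPM in 3 libraries (0.0479). It did not pass with RLE factors, library size alone, no filter, the 1.5-fold test or the replicate block. With all 12 libraries the change was 0.56 ± 0.848 in edgeR (adjusted p = 0.855), and it passed in quality-weighted voom (0.00582). Leaving out single libraries gave adjusted p from 0.0216 to 0.303. Stattic lowered Cxcl10 20-fold (-4.32 ± 0.433, 1.8e-05) and the combination lowered it 12.1-fold (-3.59 ± 0.345, 8.97e-06). The gene Art3 overlaps its exons on the other strand, at no more than 0.216 CPM.

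Cxcl9 (ENSMUSG00000029417, chr5:92321347-92328079, minus strand), whose start lies 20.8 kb from that of Cxcl10, was much scarcer. It stood at 1.96, 4.2 and 2.39 CPM in None, 1.27 and 1.57 in Kira8, 0.332 and 0.443 in Stattic, and 0, 0.0659 and 0 CPM in Kira8+Stattic. The 4 groups did not overlap, and the combination libraries held 4 counts in all. The Kira8 difference did not pass the test (-1.0 ± 0.685, adjusted p = 0.349). Stattic lowered it 7.31-fold (-2.87 ± 0.763, 0.0105), a call lost without Stattic replicate 1 (adjusted p = 0.0729) or replicate 3 (0.0553). The combination lowered it by a fitted 122-fold (-6.93 ± 0.859, 5.8e-05). All 4 counts were in replicate 2, without which the fitted log2 change was -10.46, so the size of this fold is not fixed by the data. The outlying Stattic library held 206 counts, 22.2 CPM, above all other libraries, and with it in the fit the Stattic change was 1.69 ± 1.66 (adjusted p = 0.586).

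Ccl5 (ENSMUSG00000035042, chr11:83525778-83530518, minus strand), a chemokine stored and released by effector T cells, was the member that did not pass the test in any comparison. It stood at 10.7, 11.3 and 9.53 CPM in None, 8.97 and 9.55 in Kira8, 11 and 5.78 in Stattic, and 5.26, 10.7 and 6.57 CPM in Kira8+Stattic. The groups overlapped. Its log2 changes against None were -0.18 ± 0.323, -0.32 ± 0.325 and -0.48 ± 0.288, with adjusted p of 0.764, 0.462 and 0.208. Without Kira8+Stattic replicate 2 the combination change was -0.82 (adjusted p = 0.0443).

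Ccl20, Cxcl9 and Cxcl10 were lower in Kira8+Stattic than in Kira8 alone, and no other member passed the test there, against 16% of all genes called lower. Ccl20 was 7.68-fold lower in the combination than in Kira8 alone (-2.94 ± 0.192, adjusted p = 4.5e-06), and Cxcl10 was 23-fold lower (-4.53 ± 0.371, 1.44e-05). Cxcl9 was lower by a fitted 60.8-fold (-5.93 ± 0.871, 0.000427), which became a log2 change of -9.45 without Kira8+Stattic replicate 2, the library with its 4 counts. For Ccl3 the difference was 0.27 (95% interval -0.233 to 0.778), for Ccl4 -0.17 (-0.825 to 0.481) and for Xcl1 0.49 (-0.0497 to 1.03). Ccl1 at -1.89 ± 0.89 (adjusted p = 0.132) and Ccl5 at -0.30 ± 0.32 (0.517) did not pass either. Adding Kira8 to Stattic moved no member past the test in edgeR, where 0.0141% of all genes, 3 in number, were called in either direction. Ccl1, Ccl3 and Cxcl9 had an unadjusted p under 0.05 in that comparison, as did 874 genes in all, and DESeq2 called 1 member, Cxcl9 (-4.19, adjusted p = 0.00732), while limma voom called 0. In the 12-library edgeR fit neither comparison called a member (0% of genes in each), with 3 and 2 members and 2536 and 1050 genes at an unadjusted p under 0.05.

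The question whether the Kira8 change depends on Stattic was put to the data directly, and the interaction (the Kira8 change in the presence of Stattic less the Kira8 change in its absence) was positive for Ccl3 at 2.79 ± 0.377 (adjusted p = 0.00234), Ccl4 at 3.38 ± 0.499 (0.00328) and Xcl1 at 3.04 ± 0.404 (0.00222). Ccl1 was the fourth member called, at 8.29 ± 1.92 (0.0243), a value that depends on the prior count because Stattic held no counts of it, and that lost its call without any of 7 of the 10 libraries. Of all genes tested, 4.55% were called with a positive interaction. Ccl20 at 0.67 ± 0.27 (adjusted p = 0.15), Cxcl10 at -0.20 ± 0.522 (0.875), Cxcl9 at -3.06 ± 1.11 (0.114) and Ccl5 at 0.02 ± 0.456 (1) did not pass. The Cxcl9 interaction did pass in DESeq2 (-3.18, 0.0279) and without Kira8+Stattic replicate 2 (-6.58, 0.0184). In the 12-library edgeR fit the interaction called 0 members and 0 genes, with 5 members and 3542 genes at an unadjusted p under 0.05. Quality-weighted voom of the same 12 libraries called 3 members and 1545 genes.

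**Figure D4:**
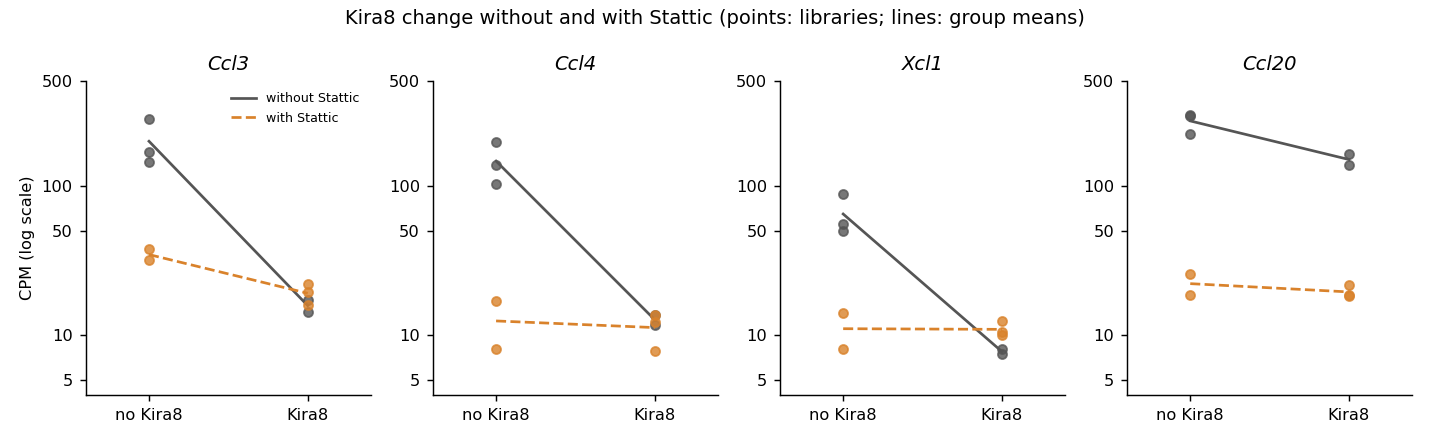
Points are libraries and lines join group means on a log scale of CPM, without Stattic (solid) and with it (dashed). Ccl3, Ccl4 and Xcl1 descend steeply with Kira8 only where Stattic is absent, while Ccl20 keeps the lines well apart, at 149 against 19.5 CPM with Kira8.

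Set directly against each other, the inhibitors differed for 4 members, Ccl20, Cxcl10, Ccl1 and Ccl3 (28.7% of all genes were called in either direction). Ccl20 was 6.75-fold lower in Stattic than in Kira8 (adjusted p = 2.61e-05) and Cxcl10 was 38.3-fold lower (3.65e-05). Ccl1 was at least 2.7-fold lower in Stattic (0.0179), a call lost without Kira8 replicate 3 (0.0604), Stattic replicate 1 (0.0737) or Stattic replicate 3 (0.0771), and in limma voom (0.185). Ccl3 was 2.19-fold higher in Stattic (1.13 ± 0.283, 0.011), a call lost without Kira8 replicate 1 (0.0966) or Stattic replicate 1 (0.0633). Ccl4 gave -0.02 (95% interval -0.743 to 0.695) and Xcl1 0.51 (-0.0828 to 1.09), neither of which passed. Ccl5 at -0.14 ± 0.353 (adjusted p = 0.813) and Cxcl9 at -1.87 ± 0.776 (0.0918) did not pass. Cxcl9 did pass in DESeq2 (0.0231), in quality-weighted voom of 12 libraries (0.0307), in a fit of these groups alone (0.0411) and without Kira8+Stattic replicate 2 (0.0326). With 12 libraries in edgeR no member was called in this comparison (0% of genes), and 3 members and 2491 genes had an unadjusted p under 0.05. The labels give no doses, so these differences hold for the amounts used.

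The chromosome 11 cluster showed that neighbours did not move alike. From the Ccl3 start, Ccl4 lies at 13.2 kb, Ccl6 at -56.3 kb, Ccl9 at -70.7 kb and Ccl5 at -118.8 kb. Ccl9, a CCR1 ligand at 22.9 CPM in None, changed by -2.56 ± 0.317 after Kira8 (adjusted p = 0.000309) and -1.92 ± 0.263 after the combination (0.00012). After Stattic it was at -0.74 ± 0.289 and did not pass (0.0609). Ccl6, at 10.3 CPM in None, gave 0.52 ± 0.474 after Kira8 (0.499), and -0.05 and -0.03 in the other comparisons. Ccl3 and Ccl4 fell in all 3 treatments and Ccl9 in the 2 with Kira8, and Ccl5 and Ccl6 passed the test in none.

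**Figure D5:**
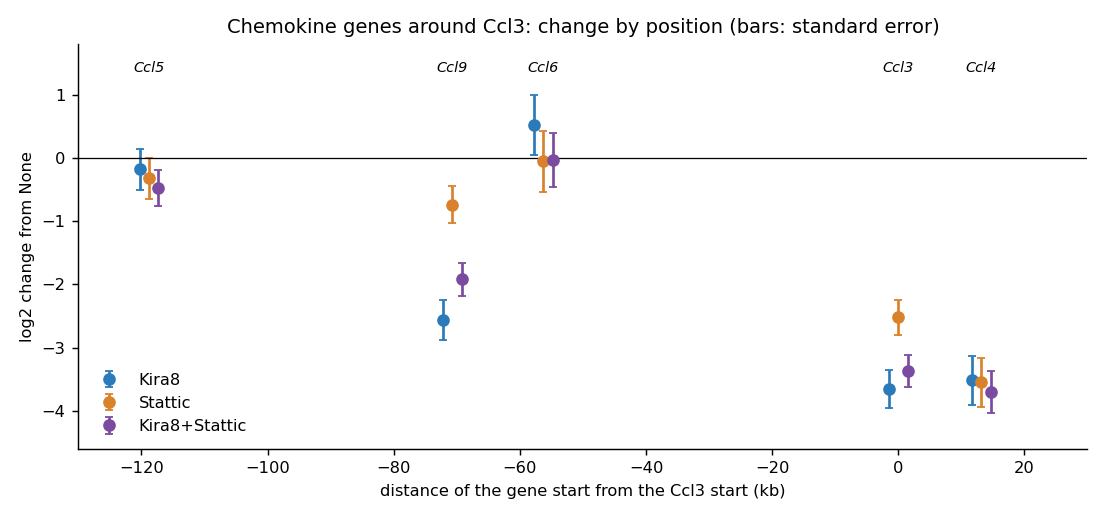
Points are log2 changes from None, with bars of 1 standard error, placed by the distance in kb of each chemokine gene's start from that of Ccl3. Ccl3 and Ccl4 lie below -2.5 in every treatment, Ccl9 lies at -2.56 after Kira8 and -0.74 after Stattic, and Ccl5 and Ccl6 lie near 0.

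Of 30 other chemokine ligands, 14 had enough counts to be tested. Kira8 lowered 2 and raised 1 of them, Stattic lowered 3 and raised 1, and the combination lowered 5 and raised 1, with medians of 0.24, -0.92 and -0.63. The shares of all genes called lower were 9.59%, 18.9% and 20%, and those called higher 9.7%, 20.1% and 20.8%. Ccl22, a CCR4 ligand, fell in all 3 treatments, by 1.43 ± 0.374, 2.36 ± 0.395 and 2.30 ± 0.336 on the log2 scale. Cxcl2, a ligand for neutrophils at 0.534 CPM in None, was the ligand that rose, by 1.68, 1.70 and 1.41 on the log2 scale. Receptors of the members were also followed, since CCL20 and its receptor CCR6 are made by the same cells. Ccr6 stood at 33.2 to 122 CPM in None and 10.5 to 13.2 CPM in Stattic (-2.56 ± 0.458, adjusted p = 0.000955). Cxcr3, the CXCL9 and CXCL10 receptor, fell after Kira8 (-1.86 ± 0.341, 0.00281) and was not called in the other comparisons against None.

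The interferon-gamma response list held 20 genes, and Kira8 lowered 4, raised 4 and left 12 uncalled (median 0.01). Stattic lowered 12 and raised 3 (median -1.13; 20.1% of all genes were called higher), and the combination lowered 13 and raised 2 (median -1.28; 20.8% of all genes higher). Ifng itself, which encodes the cytokine, fell after Kira8 (-4.15 ± 0.55, adjusted p = 0.000415), from 96.4 to 289 CPM in None to 9.3 and 9.73 CPM. It also fell after Stattic, to 8.15 and 18.1 CPM (-3.68 ± 0.533, 0.000227), and after the combination, to 5.42 to 11.7 CPM (-4.33 ± 0.464, 2.02e-05). Gbp7, an interferon-induced GTPase, was at 54.9 and 62.2 CPM in Kira8 and at 8.74 and 10.1 CPM in Stattic, from 67.9 to 82.6 CPM in None. Irf1, a transcription factor of that response, stood at 274 to 382 CPM in None, 353 and 405 in Kira8, and 77 and 78.6 CPM in Stattic. Other genes of the list moved in both directions with Kira8. Gbp5 stood at 343 to 484 CPM in None and 855 and 927 in Kira8, and Ifngr1 at 61.3 to 83.4 and 186 and 219 CPM. Irf8 went from 224 to 269 CPM in None to 109 and 139 in Kira8, and Psmb8 from 188 to 253 to 120 and 123 CPM. Neither Gbp7 (-0.32 ± 0.181, adjusted p = 0.26) nor Irf1 (0.19 ± 0.166, 0.486) passed the test after Kira8. Cxcl9 (-1.0) and Cxcl10 (0.93) did not either, but their values had opposite signs. Under Stattic all 4 were called lower.

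Among 20 antigen receptor and NF-kB response genes, Kira8 lowered 8 and raised 6, Stattic lowered 12 and raised 1, and the combination lowered 13 and raised 1. The all-gene shares for all lists here were 9.59%, 18.9% and 20% lower and 9.7%, 20.1% and 20.8% higher. Egr2, an early antigen receptor target, fell by 2.19 ± 0.22 on the log2 scale after Kira8, while Tnfaip3, the NF-kB feedback inhibitor, rose by 2.36 ± 0.26. Of 9 type 1 effector factors, 4, 3 and 4 were called lower and 1 higher in each. Tbx21, which encodes T-bet, fell from 118 to 150 CPM in None to 32.1 and 34.1 in Kira8 and 21.9 and 26.6 CPM in Stattic. Of 13 Th17 factors, 3, 4 and 6 were called lower and 3, 4 and 4 higher. Of 8 mRNA decay factors, 1, 1 and 2 were called lower and 3, 4 and 4 higher. Zfp36, which encodes the AU-rich element binding protein tristetraprolin, rose by 0.73 ± 0.215 after Kira8, 2.31 ± 0.217 after Stattic and 2.39 ± 0.204 after both. Others of that list went the other way. Khsrp stood at 212 to 242 CPM in None, 95.8 and 98.1 in Stattic and 113 to 134 CPM in the combination. Zfp36l1 stood at 267 to 301 CPM in None, 216 and 229 in Stattic and 201 to 221 CPM in the combination. The part of mRNA decay in the chemokine changes was not tested.

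The genes whose profile over the 10 libraries was closest to each member were sought among 11634 genes with a mean of at least 1 CPM, by the root mean square difference of centred log2 CPM. Ccl1 lay below that mean and has no such profile. For Ccl4 the closest were Ifng (0.337 log2 units), Car12 (0.46) and Dctd (0.491). Those of Ccl3 were Gzmb, encoding granzyme B (0.411), Xcl1 (0.418) and C1s1 (0.459). Xcl1 lay closest to Crtam, an adhesion receptor of activated T and NK cells (0.267), to Tmem41a (0.317) and to Mtap (0.336). For Ccl20 the closest were Tgtp2 (0.289), Gbp7 (0.343) and Ifi47 (0.379), all interferon-inducible GTPases. For Ccl5 they were Ms4a4b (0.191), Prkar2b (0.221) and mt-Nd2 (0.221). Cxcl10 had no gene closer than Ankrd33b at 0.683, and Cxcl9 none closer than Iglv1 at 0.833. Among members, Ccl3 and Ccl4 differed by 0.499 and Ccl4 and Xcl1 by 0.53, whereas Cxcl9 and Cxcl10 differed by 1.69. The libraries share groups and depth, so these distances only describe the profiles.

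Markers of other cells that make these chemokines were also followed. The 12 markers of CD8 T and NK cells, known sources of Ccl3, Ccl4, Ccl5 and Xcl1, summed to 366 to 582 CPM in None, 119 to 153 in Kira8, 256 to 354 in Stattic and 153 to 240 CPM in Kira8+Stattic. Of 11 tested, 7 were called lower and 0 higher after Kira8, 2 and 2 after Stattic, and 6 and 1 after the combination. For the marker lists here, the all-gene shares in these comparisons were 9.59%, 18.9% and 20% lower and 9.7%, 20.1% and 20.8% higher. The log2 change against None was negative for 10, 7 and 10 of the 11. Cd8a, an abundant marker of the list, stood at 80.2 to 150 CPM in None and 13.1 and 19.4 in Kira8. It stood at 28.7 and 36.6 CPM in Stattic and 15.4 to 34.2 CPM in the combination. The 2 higher in Stattic were scarcer, Klrb1c (0.0576 to 0.277 CPM in None, 0.586 and 2.95 in Stattic) and Klre1 (5.02 to 9.17 and 12.4 and 13.7 CPM). Ncr1 was at 0 in all treated groups and at no more than 0.101 CPM in None. The 5 gamma delta T cell markers summed to 47.5 to 62.5 CPM in None and 20.9 to 42 CPM in the treated groups. The 15 macrophage and dendritic cell markers, from cells known to make Cxcl9 and Cxcl10, summed to 48.2 to 69.5 CPM in None, 83.5 and 84.6 in Kira8, 48.2 and 62.4 in Stattic and 36.7 to 127 CPM in the combination, and of 14 tested, 1, 2 and 2 were called lower and 2, 2 and 3 higher. Zbtb46 (1.21 ± 0.337) and Mrc1 (1.99 ± 0.643) were the 2 higher after Kira8. C1qa was at 0 in Kira8 and Stattic and Clec9a at 0 in both groups with Stattic, from at most 0.181 and 0.121 CPM in None. The 11 B cell markers summed to 328 to 412 CPM in None, 172 and 204 in Kira8, 70.8 and 137 in Stattic and 72.2 to 136 CPM in the combination. The 7 stromal markers summed to 46.5 to 88.4 CPM over the 10 libraries, most of it Pecam1, an endothelial gene (group means 44.8 to 80.7 CPM). Col1a1, a collagen gene, stood at 0.363 to 1.06 CPM in None and was called higher in Stattic (3.24 and 5.88 CPM) and the combination (5.06 to 6.29 CPM). Dcn was at 0 in Kira8, and Dcn and Col3a1 were at 0 in Stattic. Of the 8 pan T cell markers, 3 were called lower in each comparison against None, and 0, 2 and 1 were called higher. The part of any of these markers in the chemokine results was not tested.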

How the data were processed

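Messenger RNA was sequenced in 12 libraries (4 groups of 3, grouped by title). The authors deposited raw counts per gene, as integers over 55401 Ensembl genes, of which 260 had no symbol. The build was mm10, per the submitters' processing notes. The aligner, counter and annotation, and any use of strand, were not given in the sources used here. Gene positions, exon lengths and 3′ untranslated regions come from GENCODE M21 of mm10, matched on the Ensembl identifier. Promoters come from RefSeq (GRCm38.p6), which matched 6 of the 8 genes.

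Genes were kept by filterByExpr (21239 genes in 10 libraries, 20993 in 12), scaled by TMM and tested with the quasi-likelihood test of edgeR 4.0.16 in R 4.3.3. A single fit held all groups, and p-values were adjusted by Benjamini-Hochberg over all genes at 0.05. There were 7 contrasts. The SE is the log2 change divided by the square root of F. CPM values are TMM-scaled in the 10 libraries and per total counts in the outlying pair. A count of 3 equals 0.0349 to 0.0581 CPM in the 10 libraries and 0.151 to 0.323 CPM in the pair. No replicates matched within sampling noise (the lowest chi-square per gene was 32.8).

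The members, the lists and the choice of 10 libraries were made with earlier results of these data known. All 8 members are described, with up to 4 genes of each list by smallest adjusted p in the comparison described, neighbours of the members, and the 3 nearest profiles. Further list genes, such as Irf1 after Kira8, Ccr6 and Zfp36, were chosen after their values were seen, and a gene of the receptor list is not reported here. Alternatives were all 12 libraries, the same with limma 3.58.1 voom and quality weights, DESeq2 1.42.0, limma voom, RLE factors, library size alone, other filters, a 1.5-fold test, a replicate block, a fit limited to the compared groups, and the omission of each library in turn. The test was also run on counts simulated for Stattic against None in 10 libraries, with 100 genes lowered 2-fold and 100 lowered 4-fold. It recovered 33% and 79% of them, and 5 of its 117 calls were false. No other gene was changed in the simulation, whereas the real comparison called 8281 genes. The unadjusted p needed to pass was therefore stricter in the simulation, and its shares do not carry over to the reported tests. A change near 2-fold that did not pass may still have been missed.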

Additional observations from a re-analysis of the deposited data

Results flagged for a closer look

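The Kira8 change differed between cells with and without Stattic for 4 chemokines, by the interaction test of edgeR in the 10 libraries, where 4.55% of all genes were called in that direction. With all 12 libraries in edgeR, 0 members and 0 genes were called, with 5 members and 3542 genes at an unadjusted p under 0.05. Quality-weighted voom of those 12 called 3 members and 1545 genes. In the 10 libraries the interaction was 3.38 for Ccl4, 3.04 for Xcl1, 2.79 for Ccl3 and 8.29 for Ccl1 on the log2 scale. For Ccl4 the Kira8 libraries lay at 11.7 and 13.7 CPM without Stattic and 7.9 to 13.6 CPM with it, from starting levels of 103 to 197 and 8.06 to 16.9 CPM. For Ccl1 the libraries with Stattic alone held no counts, so its value depends on the prior count.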

How the results depend on the processing

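In the comparisons of the 10 libraries, the calls of Ccl3, Ccl4 and Xcl1 against None and in the interaction kept their direction and their side of the threshold under DESeq2, limma voom, RLE factors, library size alone, both other filters, the 1.5-fold test, the replicate block and the omission of any library. The exception was the fit of all 12 libraries, whose common dispersion was 1.01 against 0.143. It called 0, 65, 57, 0, 0, 0 and 0 genes and 0, 1, 1, 0, 0, 0 and 0 members, in the order Kira8, Stattic and Kira8+Stattic (each against None), Kira8+Stattic against Kira8 and against Stattic, Stattic against Kira8, and the interaction. The counts from 10 libraries were 4097, 8281, 8676, 6514, 3, 6106 and 1810 genes, and 5, 7, 7, 3, 0, 4 and 4 members. Signs turned with 12 libraries for Cxcl9 after Stattic (1.69) and in Stattic against Kira8 (2.43), for Ccl5 in the combination against Kira8 (0.27), and in the combination against Stattic for Ccl4 (0.43), Ccl5 (0.425), Ccl20 (0.33), Xcl1 (0.57) and Cxcl10 (-0.71), none of these last called in either fit. The cause was not tested beyond the values of that pair of libraries.

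For the combination against Stattic, 12-library voom with quality weights called 0 genes and gave signs opposite to the edgeR values for Ccl4 (0.019), Ccl5 (0.044) and Xcl1 (0.096). DESeq2 called 51 genes and 1 member, and limma voom 1 gene, which was no member. Xcl1, uncalled, changed sign under limma voom (0.024) and library size alone (0.0071). In the same comparison no filter gave 5 genes and a fit of these groups alone 23. DESeq2 called 3179 genes in the interaction. The filter of 1 CPM in 3 libraries gave Ccl4 at 0.029 in Stattic against Kira8. The 1.5-fold test called 1359, 4865, 5018, 2912, 2872 and 461 genes in the 6 comparisons other than the combination against Stattic.

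Leaving out 1 library at a time, where a lone library of a group is assumed to vary like the other groups, gave 1642 to 4118 genes after Kira8, 5534 to 8649 after Stattic, 6937 to 9091 after both, 3270 to 7457 for the combination against Kira8, 1 to 15 against Stattic, 3180 to 7073 for Stattic against Kira8 and 498 to 2066 for the interaction. Members called ranged from 3 to 6, 6 to 7, 7 to 8, 3 to 3, 0 to 0, 2 to 5 and 3 to 4. Signs turned only for uncalled values: Ccl5 after Stattic (-0.87 to 0.070); Ccl4 in the combination against Kira8 (-0.33 to 0.033); Ccl4 (-0.58 to 0.49), Ccl5 (-0.55 to 0.38), Ccl20 (-0.40 to 0.072) and Xcl1 (-0.35 to 0.43) in the combination against Stattic; Ccl4 (-0.66 to 0.41) and Ccl5 (-0.69 to 0.25) in Stattic against Kira8; and Ccl5 (-0.37 to 0.56) and Cxcl10 (-0.52 to 0.21) in the interaction.

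The labels number the replicates alike in each group. Same-numbered libraries correlated at 0.0166 to 0.218 in their deviations from group means. Differently numbered libraries were not compared, so these values cannot show whether the numbers mark pairs. The main fit did not treat them as pairs. With the replicate number as a block, 5, 7, 7, 3, 0, 5 and 4 members were called among 4423, 8062, 8947, 6660, 4, 6519 and 1784 genes. The interaction of Ccl1 missed the threshold (7.15, adjusted p = 0.0505), that of Cxcl9 passed it (-4.45, 0.0335), and those of Ccl5 (-0.34) and Cxcl10 (0.11), both uncalled, changed sign. Cxcl9 was called in Stattic against Kira8 (-1.87, 0.0467). Depth limits Ccl1, with at most 11 counts in a treated library, and Cxcl9, with at most 23 in those of the 10 libraries that had Stattic.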

Other observations

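The outlying pair of libraries did not share a chemokine profile. Kira8 replicate 2 held Ccl20 at 7.92 CPM, Ccl4 at 5.55, Ccl3 at 3.08 and Cxcl10 at 2.32 CPM. Stattic replicate 2 held Cxcl9 at 22.2 CPM, Ccl3 at 11.3, Cxcl10 at 4.31 and Ccl20 at 1.72 CPM. Ccl1 and Ccl5 were at 0 in both, and Ccl4 and Xcl1 at 0 in Stattic replicate 2. In these shallow libraries a count of 0 allows up to 0.151 and 0.323 CPM.

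Beside the chromosome 5 genes, Sdad1, a nucleolar protein gene 17.6 kb from the Cxcl9 start, changed by -1.12, -2.90 and -2.61 against None after Kira8, Stattic and the combination, and passed the edgeR test in each.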
